A study of Mus musculus with 2 samples.

Results

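Arterial endothelial cells line the vessels that carry blood into the lung's capillary bed. They were picked out of 2 droplet single-cell libraries of mouse lung by a rule on raw counts of unique molecular identifiers (UMIs, each counting 1 captured transcript). A cell barcode had to hold at least 200 genes and at most 10% mitochondrial UMIs, at least 3 UMIs of Cldn5, Cdh5 and Pecam1 together, at most 1 UMI of Col1a2 and Col3a1 together, no UMI of Epcam or Ptprc, and at least 2 UMIs of Gja5 and Bmx together. The rule found 144 cells among the 15578 that passed the first filter, of 19593 deposited barcodes: 70 of 8417 in the wild-type library and 74 of 7161 in the knock-in library.

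Both libraries came from lungs of C57BL/6 mice with acute lung injury, 1 library of the genotype wild type (WT) and 1 of the genotype p47phox-KI (KI). p47phox, encoded by Ncf1, is a cytosolic subunit of the phagocyte NADPH oxidase, and the study set out to compare gene expression in single lung cells between the genotypes. The labels do not say what the knock-in allele carries, what caused the injury, how old the mice were, how many animals stand behind each library, or which side of the CD45.2 stain was sorted, and no uninjured lung was analysed here. With 1 library per genotype there is no test between genotypes: differences below are ratios between 2 libraries, their intervals cover counting error only, and genotype, animal and library cannot be told apart.

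Arterial identity is set up by VEGF and Notch signals: the Notch ligand Dll4 acts through Notch1 and Notch4 on Hey1 and related repressors, and SoxF factors and ephrin-B2 (Efnb2) belong to the same program. Mature arteries couple their cells through the connexins 40 (Gja5) and 37 (Gja4), secrete the chemokine Cxcl12 and the constrictor peptide endothelin-1 (Edn1), and lay down elastic fibres. In the lung most endothelial cells are capillary cells instead, either aerocytes, large cells of the gas-exchange surface marked by Car4 and Ednrb, or general capillary cells marked by Gpihbp1 and Aplnr.

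The arterial cells held 353566 UMIs in WT and 430892 in KI. Per cell the WT members held 1517 to 11942 UMIs with a median of 4192, and the KI members 925 to 42100 with a median of 4765. A pair of KI members stood apart. The deepest, with 42100 UMIs or 9.77% of all KI arterial UMIs, held 12 Gja5 and 9 Bmx UMIs together with 34 of the proliferation gene Mki67 and 65 of Cenpf, and carried 373 of the 569 KI UMIs of the cell cycle list (224 UMIs in WT). The next, with 21707 UMIs or 5.04%, held 337 UMIs of the type II pneumocyte gene Sftpc and 512 of the 812 KI UMIs of the type II pneumocyte list (192 in WT). It was 1 of 5 KI members that a doublet caller marked, beside 7 in WT. Several results below are given with and without these cells, but not every result that they move. The libraries shared 30 cell barcodes.

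**Figure D1:**
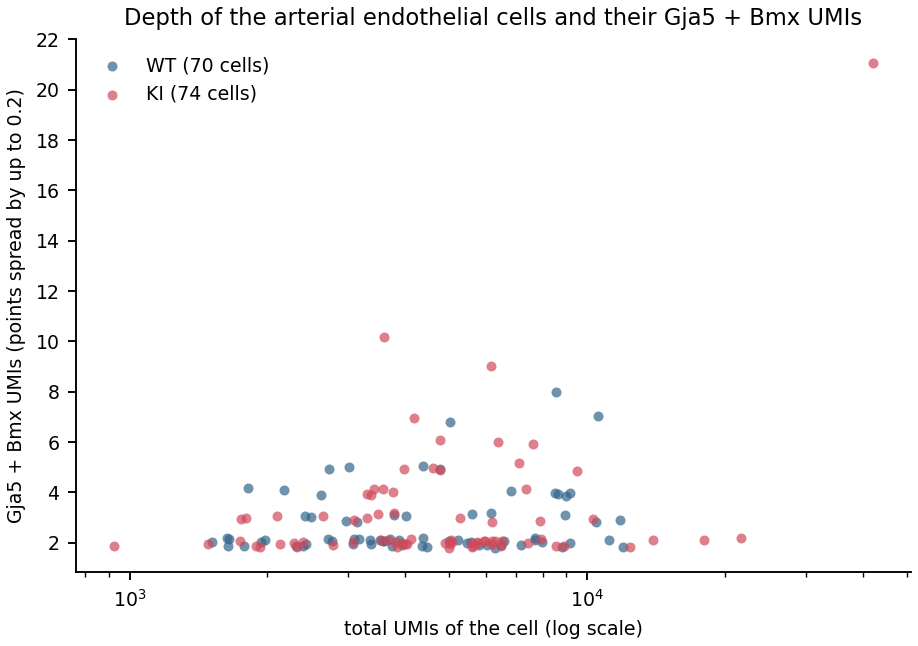
Total UMIs of each arterial endothelial cell (x axis, log scale) against its UMIs of Gja5 and Bmx together (y axis, points spread vertically for legibility), WT in blue and KI in red. Most cells of both libraries lie at 2 UMIs, the minimum of the rule, and 1 KI cell lies far to the upper right at 42100 UMIs and 21 UMIs of the rule's genes.

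Arterial cells made up 1.47% of endothelial cells in WT (70 of 4752, exact Clopper-Pearson 95% interval 1.15 to 1.86) and 1.87% in KI (74 of 3965, 1.47 to 2.34). The KI share was 1.27 times the WT share with an interval of 0.901 to 1.78, so a difference was not detectable at this depth. The rule reads raw UMIs, so a deeper cell passes more easily. With every cell thinned to 2000 UMIs, 18 WT and 21 KI cells passed, or 0.454% and 0.629% of the endothelial cells of that depth.

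Gja5 encodes connexin 40, the gap junction protein of arterial endothelium, and Bmx a Tec-family kinase made in arterial endothelium. They chose the cells, so their values are only a description. Both genes were seen in 34 WT and 30 KI members, Gja5 alone in 16 and 28, and Bmx alone in 20 and 16. Just inside the threshold, at exactly 2 UMIs, lay 44 cells in each library. Just outside, at 1 UMI, lay 181 WT and 172 KI cells. Most members therefore sat at the edge of the rule, and far more cells lay just beyond it than inside.

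The label was checked on the 4 arterial markers that the rule did not use, Gja4, Cxcl12, Hey1 and Edn1. At least 2 of them were detected in 87.1% of WT members (interval 77.0 to 93.9) and 86.5% of KI members (76.5 to 93.3). Among aerocyte-like cells, which should lack most of them, the shares were 9.43% and 13.3%, at median depths of 3829 and 4471 UMIs. General capillary-like cells reached 47.9% and 51.6% at medians of 3030 and 3174 UMIs, and venous-like cells 33.3% and 36.7% at 4212 and 4690 UMIs. Cells just outside the threshold reached 69.1% and 75.0%. Thinned to 2000 UMIs, the shares were 77.8% of the 18 WT members and 57.1% of the 21 KI members, against 2.33% and 3.67% of aerocyte-like, 14.4% and 15.3% of venous-like and 37.1% and 38.5% of general capillary-like cells. Thinned cells with 1 Gja5 or Bmx UMI reached 49.6% in WT and 67.4% in KI. The KI value lay inside the interval of the thinned KI members, 34.0 to 78.2. The rule and the gates were read again on the thinned counts. Members left with 1 Gja5 or Bmx UMI were thus counted among the cells just outside. The thinned shares therefore cannot show whether the threshold separates the cells on these markers.

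The markers did not decline alike across endothelial classes. In mm10 Gja4 lies on chromosome 4 (127311421 to 127314039), Cxcl12 on chromosome 6 (117168535 to 117181367), Hey1 on chromosome 3 (8663359 to 8667256) and Edn1 on chromosome 13 (42301476 to 42307990). The level of Gja4, connexin 37, was 430 CPM (a gene's share of all UMIs summed over the cells, scaled to 1e+06) in WT arterial cells and 265 CPM in KI, then 211 and 129 CPM in general capillary-like, 70.9 and 69.9 CPM in venous-like and 28.7 and 28.0 CPM in aerocyte-like cells. Cxcl12 followed the same order, from 1493 and 975 CPM in arterial cells through 432 and 311 CPM in general capillary-like to 65.7 and 55.8 CPM in aerocyte-like cells. Within each library the intervals of neighbouring classes did not overlap for either gene. Hey1, a Notch-induced repressor, stood at 232 and 306 CPM in arterial and 166 and 331 CPM in general capillary-like cells. Edn1 stood at 433 and 712 CPM in arterial and 397 and 454 CPM in general capillary-like cells. Hey1 in KI and Edn1 in WT were level between arterial and general capillary-like cells within counting error, with log2 ratios of −0.11 (95% counting interval −0.43 to 0.20) and 0.13 (−0.16 to 0.40).

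**Figure D2:**
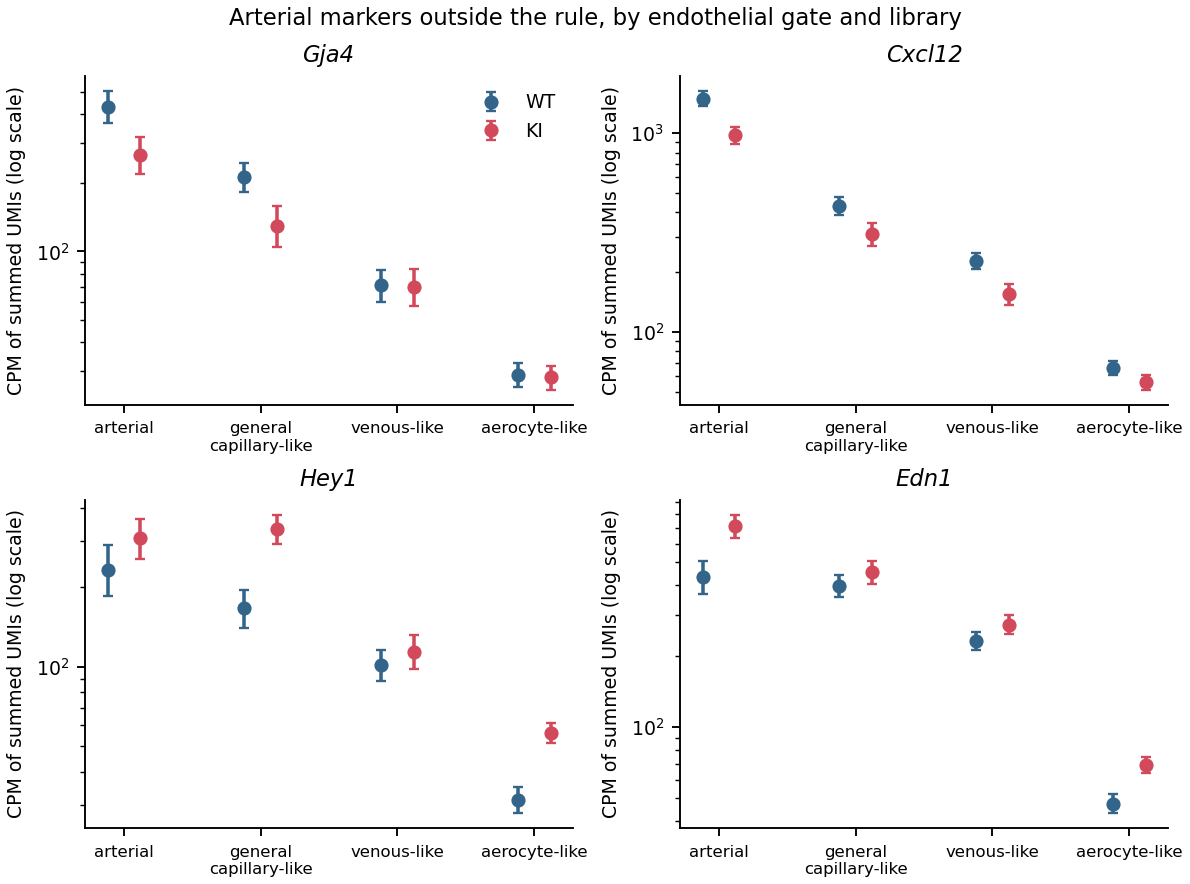
Level of Gja4, Cxcl12, Hey1 and Edn1 (y axis, CPM of summed UMIs, log scale) in arterial, general capillary-like, venous-like and aerocyte-like cells of the WT (blue) and KI (red) library; bars are exact Poisson 95% intervals. Gja4 and Cxcl12 are highest in arterial cells of both libraries, while Hey1 in KI and Edn1 in WT are about level between arterial and general capillary-like cells.

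RNA of other cell types was low but not absent. In the arterial cells no marker of smooth muscle cells, pericytes, neutrophils, lymphocytes, erythrocytes or platelets reached 20 UMIs in both libraries together, and Cnn1, Csf3r and Cd3e were at 0. The 9 smooth muscle markers, of which 6 in WT and 4 in KI had a UMI, summed to 62.2 CPM in WT and 30.2 CPM in KI. The 11 fibroblast markers summed to 385 CPM in WT, with 46 of 136 UMIs in 1 cell, and to 114 CPM in KI. Lum was at 0 in both libraries, while 9 of the 11 had a UMI in each. The 8 type I pneumocyte markers summed to 744 and 787 CPM, with a UMI in 88.6% and 86.5% of members, against 1106 and 1091 CPM in the other endothelial cells. The 7 airway markers summed to 294 and 188 CPM and the 9 macrophage markers to 73.5 and 125 CPM. The 9 type II pneumocyte markers summed to 543 CPM in WT and 1884 CPM in KI, the difference lying mostly in the KI cell named above. Ncf1 itself had no UMI in the arterial cells of either library, which allows up to 8.48 CPM in WT and 6.96 CPM in KI, while cells with Ptprc held 161 and 164 CPM. Of the membrane subunits of the oxidase, Cybb had 1 UMI in WT and 0 in KI, and Cyba had 58 and 74 UMIs.

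Against the 4501 WT and 3719 KI endothelial cells with no Gja5 or Bmx, the arterial cells were marked by genes of the arterial identity and elastic-fibre lists. This comparison describes cells chosen from the same counts and carries no test. Genes were counted with at least 200 UMIs over both gates and both libraries together, of which only 1 had to be arterial. Of these 9731 genes, 161 (1.65%) were over 1 log2 unit higher in arterial cells in both libraries and 215 (2.21%) were over 1 lower. Atp13a3, a polyamine transporter, stood at 710 CPM in WT and 638 CPM in KI arterial cells, against 58.9 and 38.0 CPM in the other endothelial cells. The log2 ratios were 3.59 and 4.07. Cxcl12 was 3.32 and 3.03 higher and Gja4 2.76 and 2.37, both genes being outside the rule. Of the 15 measured genes of the arterial identity list, 8 passed 1 in both libraries and none passed −1.

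Elastic-fibre genes were the other list high in arterial cells. Of 12 measured, 6 passed 1 in both libraries, and the list's median was 1.65 against 0.08 over all 6201 genes with at least 20 arterial UMIs. Ltbp4, which binds latent TGF-beta to elastic fibres, stood at 577 CPM in WT and 601 CPM in KI, 2.86 and 3.16 log2 units above the other endothelial cells. Eln, elastin itself, stood at 413 and 406 CPM, 1.75 and 1.58 above. Fbln2, a matrix glycoprotein, was 3.17 and 2.87 above, Fbn1, the microfibril protein fibrillin-1, 2.17 and 3.33, and Fbln5, which ties elastin to cells, 1.44 and 2.10. Mgp, an inhibitor of calcification, was 2.48 and 1.72 above but was detected in 37.1% of WT and 25.7% of KI members, against 68.6% and 71.6% for Eln. Mfap4, a microfibril-associated protein, was 1.47 above in WT and −0.22 in KI, and fibroblast markers were higher in the WT cells, as given above. The part of fibroblast RNA in these levels was not tested.

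Genes ranked highest by their smaller ratio of the 2 libraries also held membrane and matrix proteins outside these lists. Of the 17 measured guidance genes, 4 were over 1 log2 unit higher in both libraries, with a median of −0.15. Thsd7a, a thrombospondin-domain protein, stood 3.76 and 3.70 log2 units above the other endothelial cells. Adam23, a membrane protein that binds integrins, stood 3.47 and 3.31 above, Sulf1, which trims heparan sulphate, 3.02 in each library, and Flrt2, a guidance ligand of Unc5 receptors, 2.76 and 3.48. Cmklr1, the chemerin receptor, stood 4.08 and 4.21 above. Pdlim3 (3.15 and 4.22), Adgrg6 (2.68 and 3.39), Cdh13 (2.67 and 2.81), Plac8 (2.44 and 3.17, with 71 of 130 KI UMIs in 1 cell) and the transcription factor Mecom (2.96 and 2.52) completed the list with those already named and Olfm2. Olfm2 led it, at 4.98 and 9.36, but 31 of its 52 KI UMIs lay in 1 cell and the other KI endothelial cells held 3 UMIs.

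Of 10 measured coagulation genes, 2 were over 1 log2 unit higher in both libraries and 1 over 1 lower, and the list's median was −0.18. Vwf, the platelet-tethering factor often used as a marker of larger vessels, stood at 1479 CPM in WT and 1789 CPM in KI, 2.07 and 2.80 log2 units above the other endothelial cells. It also stood at 1171 and 1104 CPM in venous-like cells, so it did not set arterial cells apart from veins by 1 log2 unit. Plat, tissue plasminogen activator, stood 1.61 and 1.85 above the other endothelial cells. Efnb2 stood 1.04 and 1.63 above, Sema3g, a secreted guidance factor, 1.31 and 1.77, and Slc6a6, the taurine transporter, 1.76 and 2.05.

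Against each of the aerocyte-like, general capillary-like and venous-like cells in turn, 16 of 9043 genes (0.177%), Gja5 and Bmx left out, were over 1 log2 unit higher in arterial cells in both libraries. They were Adam23, Adgrg6, Atp13a3, Cdh13, Cxcl12, Fbln2, Fn1, Gja4, Kazald1, Ltbp4, Mecom, Pcsk5, Prkg1, Serpina3n, Sulf1 and Wwp1. Fn1, fibronectin, stood at 136 CPM in WT and 83.5 CPM in KI arterial cells, and at no more than 31.0 CPM in any of those gates. Pcsk5, a proprotein convertase, stood at 144 and 230 CPM in arterial cells, against 68.9 and 88.0 CPM in general capillary-like cells, the next highest. Kazald1 rested on 7 and 10 UMIs.

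On the low side all 9 measured aerocyte markers were over 1 log2 unit lower than in the other endothelial cells in both libraries, with a median of −2.36. Of those other cells, 2354 of 4501 in WT and 1992 of 3719 in KI were aerocyte-like. Summed, the 10 listed markers stood at 1635 and 1223 CPM in arterial cells. That was above the 815 and 861 CPM of general capillary-like and the 663 and 642 CPM of venous-like cells, whose gates allowed no Car4 or Ednrb UMI. Car4, carbonic anhydrase 4, stood at 226 CPM in WT and 248 CPM in KI arterial cells, against 2647 and 2140 CPM in aerocyte-like cells. Fibin stood at 87.7 and 65.0 CPM, against 1658 and 1493 CPM. General capillary markers were not low: Gpihbp1, which carries lipoprotein lipase, stood at 2333 and 1996 CPM in arterial cells, close to the 2645 and 2721 CPM of general capillary-like cells, for which it was a gate gene.

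**Figure D3:**
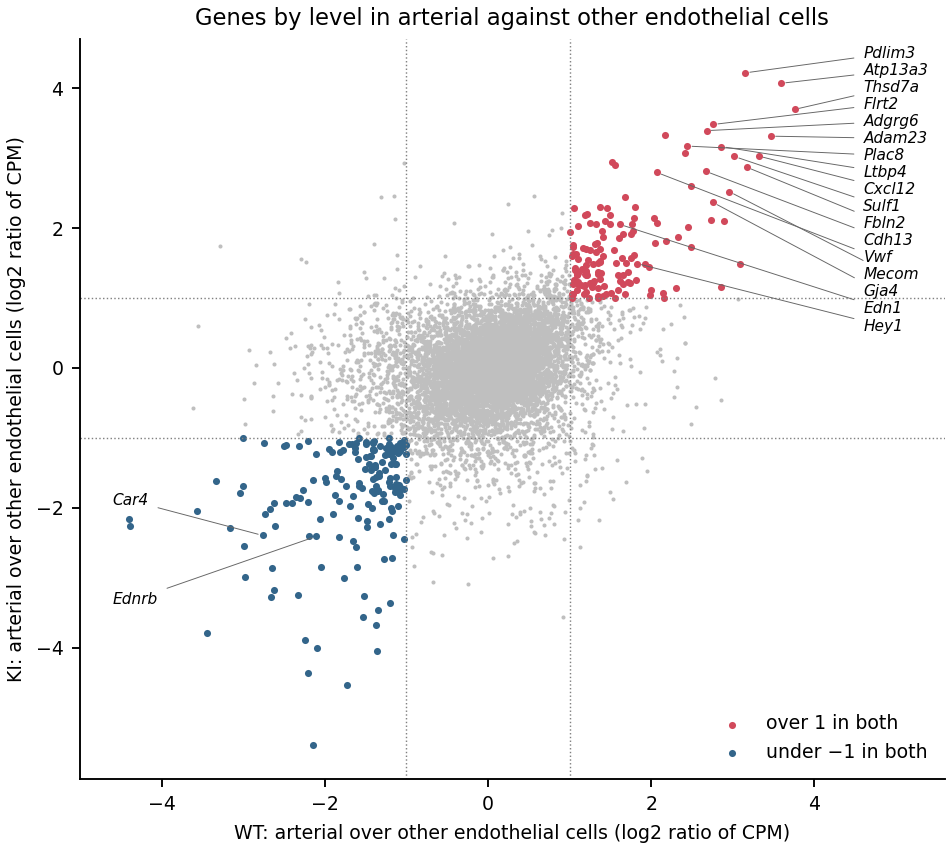
Log2 ratio of CPM in arterial over other endothelial cells, WT on the x axis and KI on the y axis, 1 point per gene with at least 200 UMIs in both gates together. Genes over 1 in both libraries are red and genes under −1 in both are blue. The ratios drawn use no prior count, and most genes with few arterial UMIs are not drawn. The points therefore need not number the 161 and 215 genes counted in the text. Atp13a3, Cxcl12 and Gja4 lie far to the upper right, and the aerocyte markers Car4 and Ednrb to the lower left.

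Across all endothelial cells, the genes whose level per cell was most like that of Gja4 were Cxcl12 (mean Pearson r of the 2 libraries 0.355), Ptprb (0.332), Lpl (0.310), Gpihbp1 (0.308), Cd93 (0.308) and Sema3g (0.306). The points are single cells that share a library and differ in depth, so the values are a description. Gja5 reached 0.196 and Bmx 0.180. Of the 6, Ptprb, Lpl, Gpihbp1 and Cd93 are capillary-list genes, as Gja4 was also found in general capillary-like cells.

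Between the genotypes, arterial cells of the KI library held less RNA of many ER protein-folding and redox-defence genes and of the metallothioneins Mt1 and Mt2, and more of many type I interferon genes and endothelial transcription factors. A gene was called past the fold where KI and WT differed by over 0.5 on the log2 scale. Of 3241 genes with at least 50 arterial UMIs, 351 (10.8%) were past it with KI higher and 354 (10.9%) with KI lower, and the median ratio was −0.02. The counting interval had a median reach of 0.63 to either side, wider than the fold itself, so single genes with few UMIs carry little weight. In the other endothelial cells, with many times the UMIs, 101 of these genes were past the fold with KI higher and 65 with KI lower. That set was largely aerocyte-like, with 2354 of 4501 cells in WT and 1992 of 3719 in KI. A contrast with it below therefore need not hold against each class. Markers of other classes differed as well: of 7 measured venous markers 4 were past the fold with KI higher and 1 with KI lower, with a median of 0.71. All 6 measured type II pneumocyte markers were higher in KI, with 512 of the 812 KI UMIs of their list in 1 cell, and all 3 fibroblast markers were lower. Of 9 measured aerocyte markers 4 were lower and 0 higher, with a median of −0.47. Of 9 general capillary markers 3 were higher and 0 lower. The 2 measured lymphatic markers and the 1 macrophage marker were higher, and the 1 airway marker was lower. The 3 type I pneumocyte markers were within the fold. The venous markers summed to 4636 CPM in WT and 6700 CPM in KI arterial cells, with Ackr1 at 0 in both. Venous-like cells held 7736 and 7648 CPM of them and general capillary-like cells 3507 and 4359 CPM, both gates being drawn partly on these markers. On this sum alone the KI arterial cells lay nearer the venous-like than the general capillary-like level. The list's median of 0.71 had a counting half-width of 0.80, wider than the median itself. The lymphatic markers were also higher, at 2749 CPM in WT and 4477 CPM in KI arterial cells. The part of these other classes in the differences below was not tested.

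The arterial markers split between the libraries. Of the 15 measured genes of the arterial identity list, 5 were past the fold with KI higher and 3 with KI lower, and the median was 0.31, against −0.26 for the same genes in the other endothelial cells. Over all 6201 genes with at least 20 arterial UMIs, against which each list below is to be read, 994 (16.03%) were higher, 931 (15.01%) lower and the median was −0.01. Without cells over 5% mitochondrial UMIs the list's median was −0.01. Gja4 had 152 UMIs in WT and 114 in KI, with the levels given above and a log2 ratio of −0.70 (−1.06 to −0.34). It was −0.31 in the other endothelial cells, and 0.16 among members with at least 3 Gja5 and Bmx UMIs, so its direction depended on the threshold. Cxcl12 was also lower in KI, by −0.62 (−0.80 to −0.43), but at 0.26 among the thinned members and at −0.45, within the fold, without the 2 deepest KI cells.

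The 5 genes of the list higher in KI were Edn1, Efnb2, Sema3g, Sox17 and Vegfc. Edn1 stood at 433 CPM (367 to 507) in WT and 712 CPM (635 to 797) in KI, intervals that did not overlap, for a ratio of 0.72 (0.43 to 1.01). Among members with at least 3 Gja5 and Bmx UMIs it was 0.19, so that call was lost at the stricter threshold. Efnb2, the ephrin that marks arteries against veins, stood at 662 CPM (580 to 752) in WT and 1021 CPM (928 to 1121) in KI, a ratio of 0.63, against 0.04 in the other endothelial cells. Sema3g was 0.61 higher (0.30 to 0.93), against 0.15, and 0.47 without cells over 5% mitochondrial UMIs. Vegfc, a lymphatic growth factor, rested on 4 and 18 UMIs. Unc5b, a netrin receptor of arterial cells, had 20 WT and 11 KI UMIs, at −1.15 (−2.36 to −0.02).

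Of 15 measured Notch genes, 2 were past the fold with KI higher, or 13.3% against 16.03% of all genes, and none with KI lower, and the median was 0.26, against 0.07 in the other endothelial cells. With the deepest KI cell left out, 3 were higher and the median was 0.31. Dll4, the arterial ligand, stood at 107 CPM in WT and 209 CPM in KI, a ratio of 0.96 (0.40 to 1.55), and was 0.79 higher in the other endothelial cells of the same libraries. Notch4, an endothelial receptor, stood at 167 and 274 CPM, a ratio of 0.71 (0.25 to 1.19) against 0.19. The targets Hey1, at 0.40 (−0.01 to 0.82), and Nrarp, at 0.45 (−0.12 to 1.04), were within the fold.

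Of the 18 measured BMP and TGF-beta genes, 4 (22.2%, against 16.03% of all genes) were past the fold with KI higher and none with KI lower. They were the BMP effector Smad5 and its feedback inhibitors and targets. Id3, a BMP-induced inhibitor of transcription factors, stood at 416 CPM in WT and 715 CPM in KI, a ratio of 0.78 (0.49 to 1.08). Smad6 stood at 645 and 986 CPM, a ratio of 0.61 (0.38 to 0.85; 0.49 with at least 3 UMIs of the rule's genes), and Smad7 at 345 and 550 CPM, a ratio of 0.67 (0.35 to 1.00). Smad5 rested on 16 and 32 UMIs, and Id1 was just within the fold at 0.48. Id3 and Smad7 were also higher in the other endothelial cells, by 0.67 and 0.53. The receptors differed less: Bmpr2 was at 0.19, Eng at −0.07 and Acvrl1 at −0.30, and the list's median was −0.06.

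Of 14 endothelial transcription factors, 7 were past the fold with KI higher and 1, Ets2, with KI lower, with a median of 0.48 against 0.11 in the other endothelial cells. Without the 2 deepest KI cells the median was 0.26, with 6 higher and 1 lower. Sox18, a SoxF factor of arteries and lymphatics, stood at 124 CPM in WT and 311 CPM in KI, a ratio of 1.32 (0.82 to 1.85), and was 1.12 higher in the other endothelial cells. Sox7 and Sox17, the other SoxF factors, were 0.76 (−0.14 to 1.72) and 0.54 (−0.05 to 1.14) higher, with intervals that reached 0. Gata2 stood at 455 and 671 CPM, a ratio of 0.56 (0.28 to 0.85). The flow-induced factor Klf2, from the shear list, stood at 651 CPM (569 to 740) in WT and 1353 CPM (1245 to 1467) in KI. Its ratio of 1.06 (0.83 to 1.28) compared with 0.42 in the other endothelial cells, while Klf4 was level at 0.07 and Klf6 lower at −0.76. Of the 12 shear genes, 1 was past the fold in each direction, with a median of 0.11, and without the deepest KI cell 2 were higher and 1 lower, with a median of 0.20.

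Vasomotor genes were higher in KI for 6 of 21 measured and lower for 1, with a median of 0.31 against −0.05. Edn1 is given above. Npr3, the natriuretic peptide clearance receptor, stood at 351 CPM in WT and 613 CPM in KI, a ratio of 0.80 (0.49 to 1.12) against 0.03 in the other endothelial cells. Ptgs1, the constitutive cyclooxygenase, stood at 36.8 CPM (19.6 to 62.9) in WT and 111 CPM (82.1 to 148) in KI, intervals that did not overlap. Ramp3, an adrenomedullin co-receptor, was 0.96 higher (0.16 to 1.81). Ptgis rested on 6 and 14 UMIs, and all 21 UMIs of Ptgs2 lay in 1 KI cell. With Ptgs2 at the bound that its count of 0 in WT allows, it still lies above the list's median, which is then the same. The nitric oxide synthase Nos3 was measured with 17 and 27 UMIs only, a ratio of 0.38 (−0.55 to 1.35). Apln, the aerocyte-made ligand of Aplnr, had 16 UMIs in WT and 5 in KI.

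The elastic-fibre genes that marked arterial cells differed little. Of 12 measured, 2 were past the fold in each direction and the median was 0.02. Eln was at −0.02 (−0.35 to 0.30) and Ltbp4 at 0.06 (−0.21 to 0.33). Lox, which crosslinks elastin, had 23 UMIs in WT and 7 in KI, 5 of them in 1 cell. Fbn1 had 11 and 30, a ratio of 1.16 (0.12 to 2.31).

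Genes of protein folding in the endoplasmic reticulum (ER) were lower in KI. Of 17 measured, 9 were past the fold with KI lower and none with KI higher, and the median was −0.52, against −0.28 in the other endothelial cells. Without the 2 deepest KI cells 6 were lower and the median was −0.37, and without cells over 5% mitochondrial UMIs it was −0.28. Hspa5 (BiP), the main ER chaperone, stood at 775 CPM (686 to 872) in WT and 376 CPM (320 to 439) in KI, intervals that did not overlap. Its ratio was −1.04 (−1.33 to −0.76), against −0.55 in the other endothelial cells, and the difference of the ratios was −0.49 (−0.78 to −0.21). Among the 18 and 21 cells that passed the rule after thinning it was 0.05, and Calr and Pdia6 were within the fold there at −0.36 and −0.01. The direction of Hspa5 was thus lost in that setting, which changed the set of cells as well as the depth.

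The remaining ER genes past the fold were folding factors and regulators of the unfolded protein response. Manf, a stress-secreted ER protein, stood at 263 CPM in WT and 146 CPM in KI, a ratio of −0.85 (−1.33 to −0.37). Calr, a lectin chaperone, stood at 772 and 473 CPM, a ratio of −0.71 (−0.97 to −0.44). Pdia6, a disulphide isomerase, was at −0.62 (−1.01 to −0.24), and Hsp90b1 (GRP94), the ER HSP90, at −0.54 (−0.79 to −0.29). The factors Xbp1 and Atf4 were at −0.74 (−1.18 to −0.31) and −0.55 (−0.96 to −0.13), and Creld2 and Sdf2l1 rested on 22 and 24 UMIs in both libraries together. Canx, Dnajb9, Dnajc3, Herpud1 and Sel1l lay between −0.03 and 0.26. The lower members were thus a part of the list and not all of it. Atf4, Creld2 and Sdf2l1 were within the fold without the deepest KI cell, at −0.43, −0.39 and −0.37, and Hsp90b1 without cells over 5% mitochondrial UMIs, at −0.35.

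Many ER chaperone genes carry the ER stress response element, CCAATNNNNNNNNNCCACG, in their promoter, so the windows of 250 bases before to 50 after the start were searched on both strands. RefSeq windows (GRCm38.p6) matched 16 of the 17 measured genes. The element was found in 7 of these, or 43.8%, against 39 of all 32851 windows (0.119%). It lay in 5 of the 8 matched genes past the fold and in 2 of the 8 within it, Canx and Dnajc3, so it was not limited to the lower genes. A match of letters is a description and not a shown binding site. The 80 bases around each match are shown for the 5 lower genes, 5′ to 3′ on the gene's strand, with the element in capitals. Calr, Hsp90b1 and Creld2 carry it on the opposite strand, where it reads CGTGG first and ATTGG last. Hsp90b1 holds 2 matches in its window, of which 1 is shown. In order they lie at chr2:34771994-34772073 (plus strand), chr8:84847045-84847124 (minus), chr10:86705503-86705582 (minus), chr12:17266460-17266539 (plus) and chr15:88819489-88819568 (plus), with the element 65, 162, 107, 98 and 126 bases before the start.
Hspa5: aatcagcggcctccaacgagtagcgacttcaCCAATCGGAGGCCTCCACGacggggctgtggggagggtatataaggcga
Calr: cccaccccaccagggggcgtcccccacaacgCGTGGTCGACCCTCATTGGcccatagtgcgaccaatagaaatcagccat
Hsp90b1: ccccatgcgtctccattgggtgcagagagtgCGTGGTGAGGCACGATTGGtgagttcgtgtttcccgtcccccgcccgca
Pdia6: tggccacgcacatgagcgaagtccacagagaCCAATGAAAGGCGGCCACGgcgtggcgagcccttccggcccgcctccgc
Creld2: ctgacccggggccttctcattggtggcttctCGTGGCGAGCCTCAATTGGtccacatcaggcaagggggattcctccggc

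Redox-defence genes were lower in KI for 8 of 21 measured and higher for none, with a median of −0.26 against 0.02 in the other endothelial cells. Without the 2 deepest KI cells 10 were lower and the median was −0.42. Slc7a11, the cystine importer that feeds glutathione synthesis, stood at 141 CPM (105 to 186) in WT and 18.6 CPM (8.02 to 36.6) in KI, on 50 and 8 UMIs. Its ratio was −2.93 (−4.22 to −1.84), against −1.47 (−1.74 to −1.21) in the other endothelial cells. Slc7a11 was thus lower in KI in both populations, and the intervals of the 2 ratios did not overlap.

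Srxn1, sulfiredoxin, which reactivates peroxiredoxins, differed in direction from the other endothelial cells. It stood at 170 CPM (130 to 218) in WT and 88.2 CPM (62.4 to 121) in KI, a ratio of −0.94 (−1.57 to −0.33), while the other endothelial cells were at 0.27 (0.19 to 0.36). The difference was −1.21 (−1.80 to −0.62). By class it was −0.73 in general capillary-like, −1.13 in venous-like and 0.47 in aerocyte-like cells, so the aerocyte-like cells were the ones that went the other way. Txnrd1, thioredoxin reductase, was at −0.97 (−1.44 to −0.52), against −0.38, and at −0.22 among the thinned members, and Sod2, the mitochondrial superoxide dismutase, at −1.09 (−1.82 to −0.39), against −0.10.

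The remaining redox genes past the fold were Hmox1, Keap1, Gpx3 and Gpx4. Hmox1, haem oxygenase-1, was at −0.76 (−1.42 to −0.11), and at −0.37 without the cell of each library that held most of it. Gpx3, a secreted glutathione peroxidase, was at −1.84 (−2.46 to −1.26), but 30 of 97 WT UMIs and 19 of 33 KI UMIs lay in single cells. Keap1, the sensor that holds Nrf2 back, was at −0.60 (−1.15 to −0.06) and Gpx4, which repairs lipid peroxides, at −0.51 (−0.88 to −0.14). The glutathione synthesis genes Gclc and Gclm were within the fold at 0.25 and −0.11, as were Prdx1 at −0.07 and Sod1 at 0.26. The core of the antioxidant response element, TGACNNNGC, was found on either strand in 7 of 17 matched promoter windows of the list (41.2%) against 12.4% of all windows. It lay in 2 of the 7 matched lower genes and in 5 of the 10 within the fold.

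The metallothioneins, small zinc- and copper-binding proteins, were lower in KI with larger counts. Mt1 stood at 2099 CPM (1950 to 2255) in WT and 610 CPM (539 to 689) in KI, and Mt2 at 568 CPM (493 to 653) and 190 CPM (151 to 236). The ratios were −1.78 (−1.99 to −1.58) and −1.58 (−1.97 to −1.20), and both genes were lower in the other endothelial cells too, by −1.52 and −1.12. Of the 12 genes of the metallothionein and glucocorticoid list, 4 were past the fold with KI lower and 2 with KI higher. The higher ones, Tsc22d3 (0.51) and Zbtb16 (0.78), are glucocorticoid-induced.

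Type I interferon genes were higher in KI. Of 15 measured, 8 were past the fold with KI higher and none with KI lower, and the median was 0.54, against 0.44 in the other endothelial cells. Without the 2 deepest KI cells it was 0.72, again with 8 higher. Ifit1, which binds viral RNA, stood at 14.1 CPM (4.59 to 33.0) in WT and 88.2 CPM (62.4 to 121) in KI, on 5 and 38 UMIs, a ratio of 2.64 (1.29 to 4.34) against 1.02. Isg15, a ubiquitin-like modifier, stood at 33.9 CPM (17.5 to 59.3) and 116 CPM (86.1 to 153), a ratio of 1.77 (0.84 to 2.82) against 0.73. Oasl2 stood at 39.6 CPM (21.6 to 66.4) and 125 CPM (94.1 to 164), a ratio of 1.66 (0.79 to 2.63) against 1.20. For these 3 genes the intervals of the libraries did not overlap. Ifi27l2a rested on 6 and 48 UMIs, 28 of the 48 in 1 cell, and Ifit3 on 4 and 18. The signal transducer Stat2 was within the fold at −0.18, and Bst2 at −0.08. All 13 measured genes of MHC class I presentation were within the fold, with a median of 0.05. Counts were low: thinned, the list kept 1 gene with 20 UMIs, at −0.48.

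The interferon-stimulated response element was searched as GAAANNGAAA on both strands of the same windows. It was found in 8 of 11 matched genes (72.7%), against 3.44% of all windows, in 4 of the 6 matched genes past the fold and in 4 of the 5 within it. Its presence therefore did not separate the higher genes from the rest. The stretches of Ifit1, Ifit3 and Isg15 are printed because these 3 interferon genes were past the fold and hold more than 1 match. All matches are in capitals, those of Ifit1 and Ifit3 lie on the opposite strand and read as TTTC pairs, and those of Isg15 overlap. The stretches lie at chr19:34640759-34640838 (plus strand), chr19:34583355-34583434 (plus) and chr4:156200846-156200925 (minus).
Ifit1: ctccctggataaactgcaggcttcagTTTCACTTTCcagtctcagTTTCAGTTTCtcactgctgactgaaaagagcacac
Ifit3: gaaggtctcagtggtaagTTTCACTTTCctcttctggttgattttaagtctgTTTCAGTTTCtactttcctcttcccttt
Isg15: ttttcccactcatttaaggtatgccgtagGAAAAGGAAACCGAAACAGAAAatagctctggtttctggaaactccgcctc

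**Figure D4:**
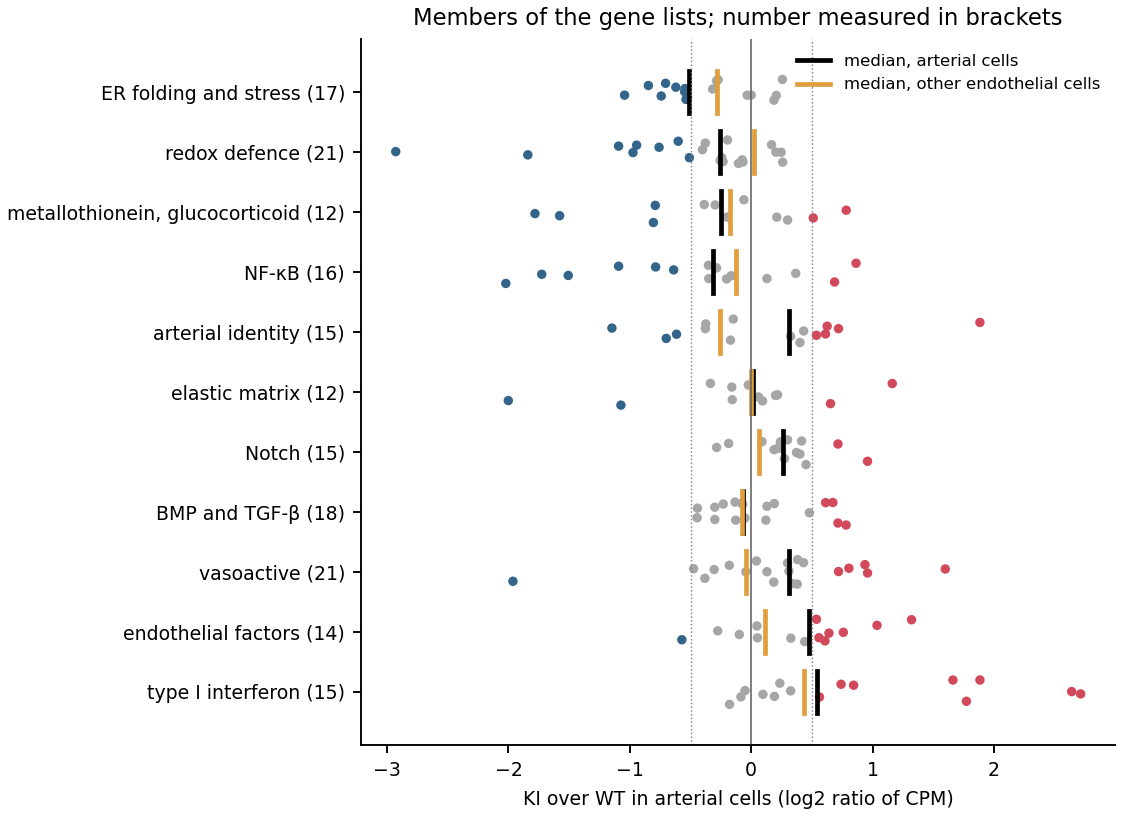
Log2 ratio of CPM in arterial cells, KI over WT (x axis), for measured members of 11 gene lists, with the list's median in arterial (black) and in other endothelial cells (orange). Points are red past 0.5, blue past −0.5 and grey within. Members without a UMI in 1 of the libraries, such as Ptgs2, are not drawn but are counted in the brackets and medians. The ER list lies to the left with a median of −0.52 and the type I interferon list to the right at 0.54, and the redox list is at −0.26 in arterial but 0.02 in other endothelial cells.

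NF-kappaB genes were mixed, 3 past the fold with KI higher and 6 with KI lower of 16 measured, with a median of −0.32 against −0.13. With the 2 deepest KI cells left out, 14 were measured, 3 higher and 4 lower, with a median of −0.25. The highest of the list, at 5.14, matched the value of Ptgs2, whose UMIs all lay in 1 KI cell. The lower ones were mostly regulators with few UMIs: Relb had 20 WT and 6 KI UMIs, at −2.02 (−3.63 to −0.65), Tnfaip3 14 and 6, and Tnfaip2 19 and 7. Icam1, the leukocyte adhesion receptor, went the other way at 376 CPM (315 to 446) in WT and 685 CPM (609 to 767) in KI. Its ratio was 0.86 (0.56 to 1.17), but 103 of 295 KI UMIs lay in 1 cell, and without the top cell of each library it was 0.53. It was −0.04 among members with at least 3 UMIs of the rule's genes. Vcam1, the other leukocyte adhesion receptor, was at −1.36 (−2.23 to −0.54) in arterial cells and at 0.54 (0.39 to 0.68) in the other endothelial cells. In the main values the 2 adhesion receptors thus lay on opposite sides. For Icam1 this depended on the setting, as it was also within the fold, at 0.47, when CPM was averaged over cells.

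Of 17 measured heat shock genes, 2 were past the fold with KI higher and 3 with KI lower, with a median of −0.29 against 0.08. Without the deepest KI cell 6 were lower and the median was −0.19, and without the 2 deepest 5 were lower and it was −0.20. Hspa1b, an inducible HSP70, stood at 195 CPM in WT and 181 CPM in KI arterial cells, a ratio of −0.11 (−0.59 to 0.38), but at 1.03 (0.98 to 1.09) in the other endothelial cells. Hspa1a, its near-identical copy, with which it may share reads, was at −0.47 against 0.62. Dnaja1, a cochaperone of HSP70, was at 0.79 (0.36 to 1.23).

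The difference between the ratio in arterial and in other endothelial cells passed 1 upward for 35 of 3241 genes (1.08%) and downward for 34 (1.05%). Without the 2 deepest KI cells the upward count was 21. The largest upward differences were those of Olfm2 (4.16), Serpinb8 (3.36), Peg3 (2.84), Lonp2 (1.83) and Hmgn2 (1.77). In these the KI counts were concentrated: 1 cell held 31 of 52 UMIs of Olfm2, 14 of 22 of Serpinb8, 28 of 55 of Peg3 and 19 of 41 of Hmgn2. Lonp2, a peroxisomal protease, was spread more evenly. The largest downward differences were Rab3gap2 (−2.72), Fam122a (−2.32), Chst1 (−1.92), Vcam1 (−1.88) and Tbx2 (−1.72). Tbx2 and Chst1 are aerocyte-list genes, and both were at low levels in arterial cells of either library, 90.5 and 41.8 CPM for Tbx2 and 59.4 and 11.6 CPM for Chst1.

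By ratio alone, the genes highest in KI arterial cells were Serpinb8 (4.17), Ifit1 (2.64), Peg3 (2.50), Hmgn2 (2.49), Pgpep1 (2.42), Dtx3l (2.25), Zfp366 (2.13), Dnmt3a (2.08), Lbh (2.04), Slc24a4 (1.99), Ibtk (1.98) and Trim33 (1.94). Dtx3l, a ubiquitin ligase that pairs with Parp9, is interferon-induced. Serpinb8 had 1 UMI in WT, and its interval ran from 1.54 to 9.54. The lowest were Slc7a11 (−2.93), Rab3gap2 (−2.87), Fam122a (−2.46), Chst1 (−2.36), Nckap5 (−2.29), Myc (−2.21), Gfod1 (−2.04), Relb (−2.02), Dnajb4 (−1.99), Fbxw10 (−1.97), Cyp26b1 (−1.89) and Creb5 (−1.89). Cyp26b1, which degrades retinoic acid, stood at 232 CPM (184 to 288) in WT and 62.7 CPM (41.3 to 91.2) in KI. It was lower still in the other endothelial cells, at −2.71, and 13 of its 27 KI arterial UMIs lay in 1 cell, without which, and without the top WT cell, the arterial ratio was −2.54.

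**Figure D5:**
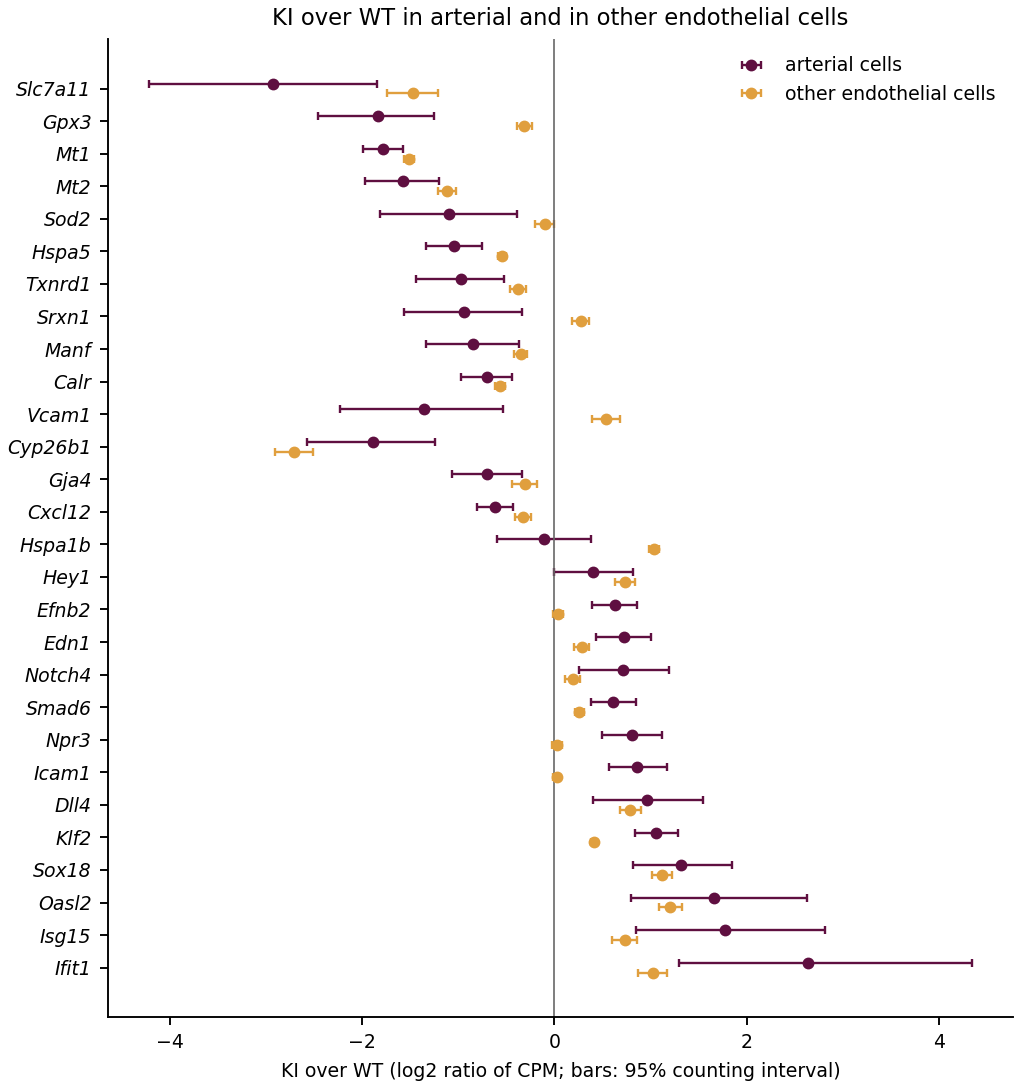
Log2 ratio of CPM, KI over WT (x axis), for 28 genes named in the text, in arterial cells (purple) and in other endothelial cells (orange), with exact conditional 95% counting intervals. Slc7a11, Srxn1, Sod2, Vcam1 and Hspa1b lie further left in arterial cells, and Klf2, Npr3, Efnb2 and Icam1 further right.

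Genes chosen earlier on these same libraries for their difference in endothelial cells as a whole repeated their direction in the arterial subset, which is no independent evidence. Of 10 such genes lower in KI, 7 were past the fold and the median was −0.80, against −1.17 in the other endothelial cells. Of 9 measured that had been chosen as higher, 8 were past it, with Hspa1b the exception. Among the genes chosen as lower, Inhbb, an activin subunit, was within the fold in arterial cells at −0.30 (−0.72 to 0.12) but at −1.12 in the other endothelial cells, and Ackr3, the scavenging receptor of Cxcl12, was at −0.14 against −1.10.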

How the data were processed

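Lungs were perfused, minced and digested with collagenase, stained with a viability dye and an anti-CD45.2 antibody, sorted, and run on the 10x Chromium Single Cell V3 platform, per the labels' protocols. The authors deposited 1 matrix of raw UMI counts per library, with no normalization. Seurat 2.3.4, mm10, R 3.5.3 and Cell Ranger 2.0 are listed, per the submitters' processing notes, while the matrix header gives software version 3.0.2. The deposited libraries held 10473 WT and 9120 KI barcodes with 43376713 and 43445797 UMIs.

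The 31053 rows were summed to 31017 symbols, and 1 listed gene was matched by ID. UMIs were summed over the cells of a gate and given as CPM with exact Poisson 95% intervals, ratios of sums with exact conditional binomial intervals, and shares with Clopper-Pearson intervals, all of counting error only. List medians and differences of ratios used a prior count of 0.5. Lists were measured on genes with at least 20 arterial UMIs, and counts over all genes on at least 50. For arterial against other cells the floor was 200 UMIs over the compared gates and both libraries together. The fold was 0.5 log2 units between genotypes and 1 between gates or for a difference. With 1 library per genotype no test was run. Venous-like, aerocyte-like and general capillary-like cells were gated on listed markers, without clustering. The automatic threshold of the doublet caller in scanpy 1.11.5 marked 0 cells, so the barcodes with the highest scores were marked, 877 in WT and 665 in KI, and kept in the main values.

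Ranked genes reached 50 CPM and were detected in 10% or more of the members of either library: the 12 highest and 12 lowest KI over WT, the 15 highest over other endothelial cells, 5 differences each way and 6 genes most like Gja4. The genes of the rule, sex-linked, mitochondrial, ribosomal, haemoglobin and unnamed gene models were left out, as were genes over 20 times lower in members than in another lineage's gate. The members and lists were chosen with earlier results of these data known. The ratios were tested on simulated data. Python 3.11.15, numpy 2.4.6, scipy 1.17.1, pandas 2.3.3 and matplotlib 3.10.9 were used. Alternatives changed the rule, filters, depth, scaling, floors and folds, and those without the deepest members were chosen after seeing the data.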

Additional observations from a re-analysis of the deposited data

How the results depend on the processing

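No paired analysis was possible because each genotype had 1 library. Of the summary values under all alternatives, 110 stayed within the stated range, 42 moved and 1 reversed, of the other list values 289 stayed, 63 moved and 5 reversed, and of the single-gene values 1320 stayed, 123 moved and 9 reversed. Of 102 single genes past the fold between genotypes, 7 of 27 with enough UMIs were within it after thinning, 12 of 79 at 5% mitochondrial UMIs, 8 of 64 with at least 3 Gja5 and Bmx UMIs and 7 of 100 without the 2 deepest KI members. The cause was not tested beyond the number of cells or genes each setting leaves. With at least 3 Gja5 and Bmx UMIs (26 WT and 30 KI members), 179 genes were higher and 198 lower in KI, 21 differences were downward, 294 genes were higher over other cells, the transcription factor median was 0.18, Gja4 was at 0.16 and Icam1 at −0.039. With Gja5 and no Bmx (16 and 28 members), 132 were higher and 93 lower, Gja4 was at 0.31, Sox7 at −0.0040 and Tbx3 at −0.25. Thinned to 2000 UMIs, 35 were higher and 36 lower, 8 differences were upward and 7 downward, 538 and 111 genes were higher and lower over other cells, Cxcl12 was at 0.26 and Hspa5 at 0.049, and medians were −0.48 for interferon, −0.35 for the cell cycle, −0.71 and 0.091 for the genes chosen earlier as higher and lower. Without any UMI of other lineages (7 and 2 members), 19 were higher and 19 lower, 9 differences were upward and 4 downward, 1607 and 56 genes were higher and lower over other cells, Cxcl12 over other cells in KI was −1.08, the share ratio was 0.342, and medians were −1.11 (arterial identity), 1.53 (interferon) and −0.68 (redox). At 5% mitochondrial UMIs, 22 differences were upward, medians were −0.013 (arterial identity) and −0.28 (ER), and Dnajb1 was at 0.28. With the mean of CPM per cell, 52 differences were downward, 343 genes were lower over other cells, and medians were 0.87 (interferon) and −0.44 (redox). With no floor on UMIs, 2205 were higher and 2165 lower, 709 differences were upward and 888 downward, 576 genes were higher over other cells, and the arterial identity median was 0.081. At a fold of 1, 63 were higher and 53 lower, and at 0.3 the arterial identity list had 8 higher and 5 lower. Without the 2 deepest KI members, 21 differences were upward and medians were 0.26 (transcription factors) and −0.30 (cell cycle). The cell cycle median was −0.24 without the deepest alone and 2.27 with all members.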

Other observations

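Lpl, lipoprotein lipase, stood at 823 CPM (731 to 923) in WT and 1722 CPM (1600 to 1850) in KI arterial cells, a log2 ratio of 1.07 (0.87 to 1.27), and was 0.83 higher in the other endothelial cells. Of the 13 measured genes of lipid uptake and caveolae, 2 (15.4%, against 16.03% of all genes) were past the fold with KI higher and none with KI lower, with a median of −0.12, so Lpl stood apart from its list.

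Glycolysis and hypoxia genes were past the fold with KI lower for 4 of 18 and with KI higher for none, with a median of −0.22, against −0.11 in the other endothelial cells. The 22.2% lower compared with 15.01% of all genes, and without the deepest KI cell 1 was higher and 5 lower. Immediate early genes had a median of −0.14 in arterial and 0.32 in the other endothelial cells, with 2 of 18 past the fold with KI higher and 4 with KI lower. Their median was 0.03 without the 2 deepest KI cells, with 3 higher and 2 lower, so its sign rested on those cells. Of the 11 basement membrane genes, none was higher and 2 were lower (18.2%, against 15.01% of all genes), and 1 was lower without the deepest KI cell.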
